A study of Mus musculus and Rattus norvegicus with 11 samples.

Results

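The cells described here are the B cells of peripheral nerve in C57BL/6 mice: every cell that the authors' deposited annotation names BC in the 3 C57BL/6 libraries. They numbered 160 of the 5198 C57BL/6 cells with a cell type name, with 98 in library 1, 33 in library 3 and 29 in library 4. The series profiled single cells of mouse and rat nerve by droplet 3' RNA sequencing, in which each captured transcript is counted once through a unique molecular identifier (UMI), and 15672 of 16050 mouse barcodes carried a name. Sciatic nerves and brachial plexus were taken from perfused mice, and the cells, released enzymatically and cleared of myelin, were sorted with the dyes Calcein-AM, Zombi NIR and DAPI. C57BL/6 mice, called undiseased by the submitters, carry no named allele or treatment. They were set beside 2 groups on the NOD background, an inbred strain prone to autoimmunity: NOD control mice, with 723 cells named BC, and NOD mice labelled ICAM-1 knockout (genotype written ICAM-1-1/-NOD in the labels), with 1107. The NOD groups were studied as chronic autoimmune neuritis. Ages, the deleted part of Icam1 and whether a library is 1 animal or a pool are not given in the labels, so every p-value measures only the spread between these samples, which may be technical.

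B cells recognise antigen through a membrane immunoglobulin built of heavy and light chains, which signals through the partner proteins CD79A and CD79B. During development a B cell rearranges heavy and light chain genes, and allelic and isotypic exclusion usually leaves it with a single light chain type, kappa or lambda. A resting mature B cell carries IgM and IgD, takes up antigen and presents it on MHC class II, while a plasma cell switches to secreting antibody. Healthy peripheral nerve is held behind a blood-nerve barrier and is not a site where B cells develop.

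The name fitted the genes in the cells. Igkc, the kappa light chain constant gene, had a UMI in 92.5% of the 160 cells, Cd79a in 75.6%, Ly6d, a surface protein of lymphocyte progenitors and B cells, in 52.5%, Ms4a1 (CD20) in 37.5%, and Ighd, the IgD heavy chain, in 23.8%. At least 2 of these 5 markers were present in 133 cells, 1 in 25 cells and 0 in 2 cells. Since the annotation was made on the same cells, this is a check of the name and no test. The heat map of shares by cell type sets these genes beside the other C57BL/6 types. Igkc had a UMI in 0 of 333 T cells (named TC), 0 of 228 macrophages (MP), 0 of 229 pericytes (PC) and 0 of 46 myeloid cells (MC), at median depths of 692 UMIs in B cells and 912 in T cells. Cd79a was present in 25 of 498 endothelial cells (EC1, 5.02%), with 29 UMIs in all, and Ighm, the IgM heavy chain, was present in 19.3% of macrophages and 14.4% of T cells against 60.6% of B cells. Ebf1, a B lineage transcription factor, did not set the cells apart: it was present in 52.5% of B cells, 65.9% of pericytes and 65.1% of fibroblasts.

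**Figure D1:**
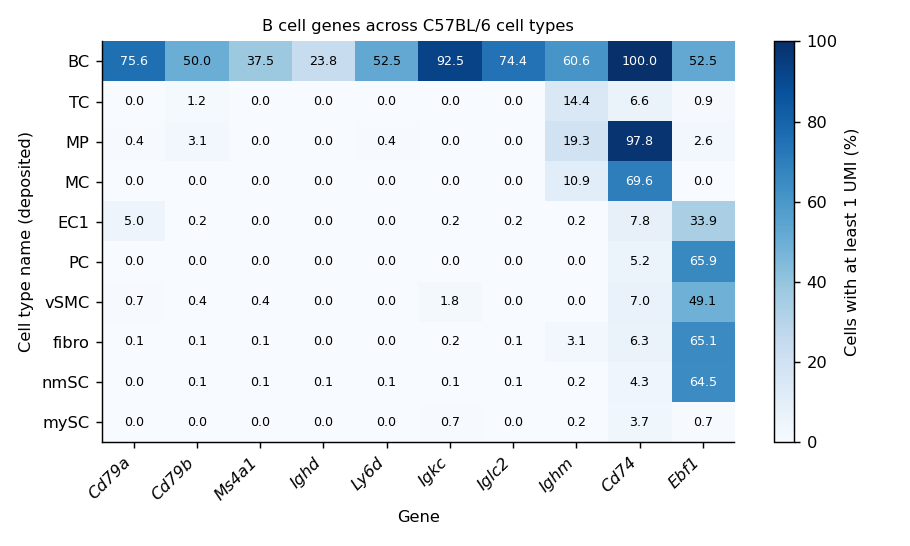
Each cell of the heat map gives the percentage of C57BL/6 cells of a deposited type name (rows) that hold at least 1 UMI of a gene (columns), over the 3 libraries together. The row BC holds 92.5% for Igkc and 100% for Cd74, the column Ebf1 is filled in stromal types as well, and Cd74 is at 97.8% in MP.

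The 3 libraries differed in depth and composition, and library 1 stood apart. They held between 400 and 3800 barcodes and between 571042 and 6631004 UMIs. The B cells gave 67711, 34171 and 26370 UMIs in libraries 1, 3 and 4, with medians of 580.5, 893 and 807 UMIs and 283, 514 and 430 genes per cell, so that 1 UMI is worth 14.8, 29.3 and 37.9 CPM (the UMIs of a gene scaled to the same total in every sample). In library 1, genes of ribosomal proteins took 46.1% of the B cells' UMIs, against 23.8% and 24.8% in libraries 3 and 4, and mitochondrial transcripts took 0.979% against 3.95% and 4.08%. The 12 MHC class II presentation genes took 2.97%, 6.71% and 6.07%, and the 19 immediate early and stress genes 0.273%, 0.942% and 0.667%. T cells of library 1 showed both features as well, with 51.3% ribosomal and 1.01% mitochondrial UMIs. Pairs of the 3 libraries shared 10, 0 and 3 barcodes, and 0 shared barcodes were named BC in both.

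**Figure D2:**
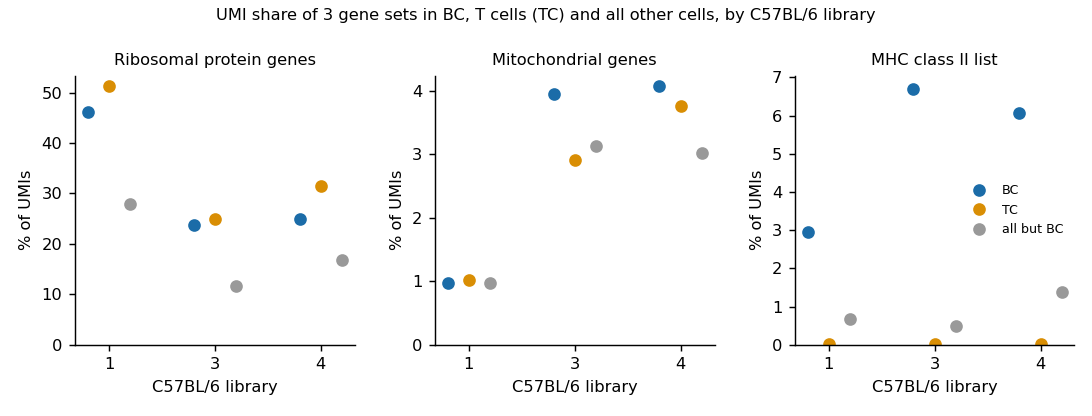
Each point is the percentage of UMIs (y axis) from ribosomal protein, mitochondrial or MHC class II genes in cells named BC, in T cells (TC) and in all cells but BC, for C57BL/6 libraries 1, 3 and 4 (x axis). Library 1 is highest for ribosomal genes (46.1% in BC) and lowest for mitochondrial ones (0.979% in BC).

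B cells made up a small and uneven share of C57BL/6 nerve. They were 8.21% of named cells in library 1 (95% exact binomial interval 6.71 to 9.91), 0.913% in library 3 (0.630 to 1.28) and 7.42% in library 4 (5.02 to 10.5). Libraries 1 and 4 overlapped in their intervals, and library 3 lay below both. Against named leukocytes alone (B cells, T cells, macrophages and MC), the shares were 32.5%, 12.2% and 14.9%, and library 1 was then the high one. Sorting, tissue freed by the enzymes and the number of stromal cells recovered can set all of these shares, and their part was not tested. The intervals here and elsewhere cover counting error only.

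Genes of the antigen receptor and its co-receptors were well covered in the B cells. All 20 genes of the list for the B cell receptor and its proximal signalling had a UMI, 13 of them were higher in B cells than in every other type of at least 50 cells in each of the 3 libraries, and their median level was 357 CPM, against 24.5 CPM over the 7791 genes detected in these cells. Over all genes, 180 were highest in B cells in every library. Cd79a, the receptor's signalling chain, was at 1876, 2312 and 3337 CPM in libraries 1, 3 and 4 (2508 ± 750, SD, n = 3). Its partner Cd79b was at 975, 995 and 1403 CPM (1124 ± 242). Both were lowest in library 1, and mean levels were 47.5 times those of the next type for Cd79a (EC1) and 60.8 times for Cd79b (MP). Ms4a1 was at 369, 995 and 1251 CPM, lowest again in library 1, from 92 UMIs, against 1 UMI in vascular smooth muscle cells (vSMC), the next type. Cd22, Cxcr5, Ms4a1 and Pax5 overlap genes on the opposite strand, and whether strand was used in counting is not given in the sources used here.

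Signalling proteins downstream of the receptor were less restricted. Bank1, a B cell adaptor, had 38 UMIs in 21.2% of cells and Blnk, which links the kinase SYK to its targets, had 28 UMIs in 13.1%, and both were highest in B cells in every library. The kinases Syk, Btk and Lyn had 10, 3 and 22 UMIs and were shared with macrophages: mean levels over the libraries were 1.18, 0.703 and 1.79 times those of MP. Blk, a SRC family kinase of B cells, had 2 UMIs in each library. Of 11 inhibitory receptors and their partners, 8 had a UMI and 7 were highest in B cells in every library, with a list median of 116 CPM. Among these were Cd72 with 28 UMIs, Siglecg with 26, Fcer2a (CD23) with 25, Fcrl1 with 15 and Cd22 with 9, the last at least 180-fold over the 8 other types together. That bound, like the others below, takes 3 counts over the compared types as the limit that a count of 0 allows. Cd5, Pirb and Lilrb4a were at 0, which allows up to 23.4 CPM over the 3 libraries.

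**Figure D3:**
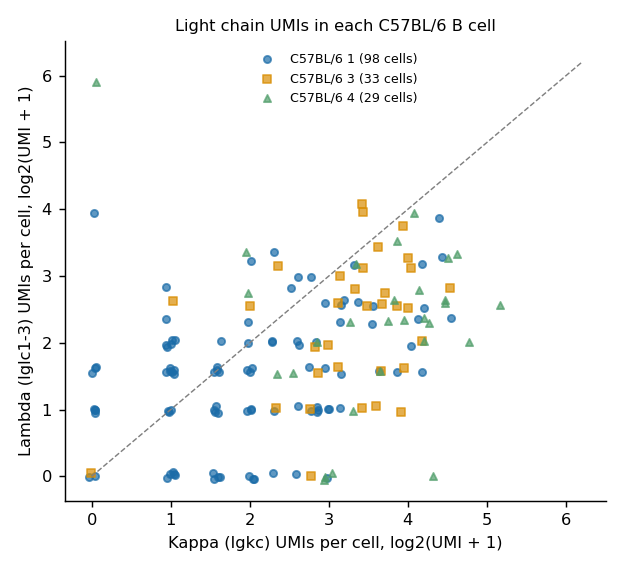
Each point is 1 of the 160 C57BL/6 B cells, with kappa UMIs on the x axis and lambda UMIs (Iglc1, Iglc2 and Iglc3) on the y axis, both as log2(UMI + 1) with a small random shift, and the dashed line marks equal numbers. The 128 cells away from both axes hold both chains, 113 cells hold more kappa and 36 more lambda.

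Most B cells held transcripts of both light chain types. At a threshold of 1 UMI, 128 of the 160 cells (80.0%) held kappa and lambda, 20 (12.5%) kappa alone, 9 (5.63%) lambda alone and 3 neither. By library, cells with both were 74.5%, 93.9% and 82.8% of the B cells. At 2 UMIs of each chain the share with both was 55.6%, and after thinning each cell to 440 UMIs, the smallest total in any of the 160, it was 66.3%, so the share depends on threshold and depth. Among the 72 cells with at least 10 light chain UMIs, lambda took under 10% in 4 cells, 10 to 50% in 57, 50 to 90% in 9 and over 90% in 2, with a median of 29.7%. Cells dominated by a single type were thus 6 of 72. T cells of the same libraries, which should lack these genes, held a light chain UMI in 1 of 333 cells. The part that free RNA or barcodes with more than 1 cell play in the cells with both chains was not tested.

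The lambda signal was similar in the 3 libraries although the levels of single genes were not. Lambda took 35.8% of light chain UMIs in library 1 (32.2 to 39.4), 34.1% in library 3 (29.9 to 38.4) and 32.5% in library 4 (28.7 to 36.5), and the intervals overlapped. Igkc itself was at 6794, 9511 and 14714 CPM (10339 ± 4025), Iglc2 at 2496, 3131 and 3906 CPM, Iglc3 at 886, 1434 and 1706 CPM, and Iglc1 at 399, 351 and 1479 CPM. Library 4 was highest for all 4 genes. The 2 cells with at least 10 lambda UMIs and no kappa lay in libraries 1 and 4: the first had 13 UMIs of Iglc2 and 1 of Iglc3, the other 31 of Iglc1, 25 of Iglc2 and 2 of Iglc3. The second thus held 2 lambda genes at high count.

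How far the 3 lambda genes can be told apart depends on their sequences, so the last 120 coding bases of each, the part nearest to the 3' end that the assay reads, are shown from the GENCODE vM21 transcripts (GRCm38, minus strand of chromosome 16). Iglc1 lies at chr16:19061755-19061874, Iglc2 at chr16:19198539-19198658 and Iglc3 at chr16:19065368-19065487. Capitals in Iglc2 and Iglc3 mark the bases at which these 2 differ from each other, and capitals in Iglc1 mark its differences from Iglc2.
Iglc1: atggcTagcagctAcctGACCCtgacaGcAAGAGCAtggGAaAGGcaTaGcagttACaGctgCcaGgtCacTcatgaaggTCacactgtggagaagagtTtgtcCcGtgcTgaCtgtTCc
Iglc2: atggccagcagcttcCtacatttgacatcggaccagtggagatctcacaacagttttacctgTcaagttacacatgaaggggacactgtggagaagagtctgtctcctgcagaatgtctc
Iglc3: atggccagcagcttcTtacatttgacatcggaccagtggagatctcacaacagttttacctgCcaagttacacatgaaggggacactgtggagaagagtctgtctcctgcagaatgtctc
Iglc2 and Iglc3 matched at 118 of these 120 bases and at 303 of the 314 coding bases they share, while Iglc1 matched either of them at 82 of 120. Their counts are therefore uncertain one against the other, and the sum over the 3 genes is the safer value. Gm30211 (chromosome 6, 70719074 to 70740554), which ranked among the genes most restricted to B cells, spans Igkc (70726435 to 70726966) on the same strand, and 2010309G21Rik (chromosome 16, 19051367 to 19106749) lies antisense over Iglc1 and Iglc3, so both are uncertain as well.

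Heavy chain transcripts were those of unswitched B cells. Ighm was at 1373, 1844 and 3489 CPM (2235 ± 1111) and Ighd at 281, 556 and 341 CPM (393 ± 145). Ighm was highest in library 4 and Ighd in library 3. Ighd had 1 UMI in all 8 other types. All 6 switched heavy chain genes (Ighg1, Ighg2b, Ighg2c, Ighg3, Igha and Ighe) were at 0 UMIs, which allows up to 23.4 CPM, and 0 of the 160 cells held 10 or more UMIs of Jchain, which joins secreted IgA and IgM, or of a switched gene. Jchain had 1 UMI in all. Of the other plasma cell genes, Sdc1 (CD138), Prdm1, Tnfrsf17, Derl3 and Eaf2 were at 0, and Xbp1, the factor behind the secretory apparatus, had 7 UMIs. Of the 11 plasma cell genes 6 had a UMI: beside Jchain and Xbp1 these were Edem1 (5 UMIs) and Slamf7 (3), both in library 1 alone, Irf4 (19) and Mzb1. Mzb1, a chaperone of immunoglobulin assembly found in B and plasma cells, was the one of the 11 that was highest in B cells in every library, with 340, 351 and 796 CPM in 25.6% of cells and at least 1119-fold over the other types.

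Genes of resting mature B cells were all present, and 7 of 12 genes of earlier stages and 8 of 9 of the germinal centre were at 0. All 10 mature naive genes had a UMI, with a list median of 232 CPM: Fcer2a was at 162, 263 and 190 CPM, Cd37, a tetraspanin, at 857, 761 and 607 CPM, and Ccr7, the receptor that guides cells to lymph nodes, at 354, 556 and 37.9 CPM. Ccr7 was low in library 4, where it had a single UMI. Of the 12 pro-B and immature genes 5 had a UMI, and Rag1, Rag2, Vpreb1, Vpreb2 and Igll1, the genes of receptor rearrangement and the surrogate light chain, were at 0. Vpreb3, which binds newly made receptor chains, had 3, 7 and 10 UMIs and 44.3, 205 and 379 CPM. Of 9 germinal centre genes 1 had a UMI (Fas, 1 UMI), and Bcl6, the factor that drives the germinal centre program, was at 0. Of 12 marginal zone and B-1 genes 8 had a UMI, with a list median of 11.2 CPM: Cr2 (CD21) had 4 UMIs, all in library 3, and Cd9 had 11, while Cd5 and Spn were at 0. Of 9 memory and T-bet genes 5 had a UMI (median 4.92 CPM), led by Cd38 with 19, while Tbx21 itself was at 0. Mki67 and Top2a, made by dividing cells, were at 0. For the genes at 0, a level of up to 23.4 CPM over the 3 libraries is allowed.

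The transcription factors of the lineage were low but all 15 were detected, and 6 were highest in B cells in every library. Pax5, which holds cells to the B lineage, was at 73.8, 117 and 37.9 CPM from 10 UMIs and was at least 200-fold over the other types together. Pou2af1 (OCA-B), the co-activator that B cells use with octamer-binding factors, was at 44.3, 58.5 and 152 CPM, and Spib at 59.1, 117 and 114 CPM. Irf8 was at 192, 439 and 531 CPM and was 1.78 times its level in T cells. Irf4 was at 148, 263 and 0 CPM, absent from library 4, where 0 UMIs allow up to 114 CPM. Foxp1 (694, 673 and 341 CPM), Ets1 and Ikzf1 were shared with endothelial or T cells.

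The start regions of the restricted genes were searched for 2 motifs of such factors, on both strands: the octamer ATGCAAAT and CCCNNGGG, a core bound by EBF1. Of the 20 genes with the largest ratio to the other types, 8 had a promoter (250 bases before to 50 after the start) in the RefSeq table for GRCm38.p6. The octamer was in 1 of the 8 and in 570 of all 32851 promoters (1.74%). CCCNNGGG was in 1 of the 8 and in 4491 of all promoters (13.7%). The octamer match lay 37 bases before the start of Vpreb3 on the minus strand (chr10:75948050-75948349, plus strand gene), where it reads ATTTGCAT, and the other match lay 40 bases before the start of Cd22 (chr7:30878979-30879278, minus strand gene). The 2 promoters are shown 5′ to 3′ on the gene's strand with the match in capitals, since they are the ones that hold a match.
Vpreb3: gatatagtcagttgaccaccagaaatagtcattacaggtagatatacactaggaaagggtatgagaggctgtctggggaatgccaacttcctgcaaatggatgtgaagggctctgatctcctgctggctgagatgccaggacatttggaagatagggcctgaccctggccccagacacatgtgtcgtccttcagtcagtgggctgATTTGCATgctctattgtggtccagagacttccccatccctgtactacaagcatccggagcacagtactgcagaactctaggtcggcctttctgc
Cd22: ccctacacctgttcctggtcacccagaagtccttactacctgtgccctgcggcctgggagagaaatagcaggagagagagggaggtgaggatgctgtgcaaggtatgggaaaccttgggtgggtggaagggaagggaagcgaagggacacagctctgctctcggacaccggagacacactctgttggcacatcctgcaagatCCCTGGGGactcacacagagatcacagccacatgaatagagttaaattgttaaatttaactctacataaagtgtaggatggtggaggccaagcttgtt
A match of letters does not show that a factor binds there.

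B cells carried the MHC class II machinery that they share with macrophages, together with the parts that are their own. Cd74, the invariant chain, had a UMI in all 160 cells at 16733, 41819 and 40008 CPM, and its mean over the libraries was 0.721 times that of MP. H2-Aa was at 3751, 8896 and 6560.5 CPM and H2-Ab1 at 4179, 8048 and 6485 CPM, again below MP and lowest in library 1, in which ribosomal UMIs were highest. H2-Oa and H2-Ob, the 2 chains of the DO molecule that restrains peptide loading, were at 9.68 and 20.9 times the level in MP, and H2-DMb2 at 6.39 times, and these 3 were the class II genes that were highest in B cells in every library. H2-Ob had 59 UMIs in 31.2% of cells. Of the 11 class I presentation genes, all had a UMI and 0 were highest in B cells in every library.

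Receptors for survival, help and homing were present at low level. Tnfrsf13c, the BAFF receptor, was at 88.6, 117 and 228 CPM from 16 UMIs, against 3 UMIs in MP, and Tnfrsf13b (TACI) was at 44.3, 117 and 379 CPM. Cd40 had 9 UMIs, Cd83 was at 428, 1756 and 417 CPM, and Cd80, Tnfrsf17 and Tlr9 were at 0. Cxcr5, the receptor for the follicle chemokine CXCL13, had 8 UMIs and none in the other types. All 15 homing and adhesion receptors had a UMI, with a median of 43.9 CPM, and Cxcr4 had 5 UMIs. Of the 9 ligands for survival and homing that the table counts, the B cells held 1 UMI, of Cxcl12. Ltb, a lymphotoxin chain with which lymphocytes organise tissue, was the main cytokine gene, at 473, 527 and 1706 CPM, 1.21 times its level in T cells. Il10, Il6, Lta, Csf2 and Ifng were at 0, and Isg15, Ifit1, Ifit3 and 5 other interferon response genes were at 0 of 18.

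Transcripts of other cell types were few, apart from fibroblast ones in library 3. The T cell list gave 4 UMIs over 10 genes with Cd3e, Cd3g, Trac, Trbc1 and Trbc2 at 0, the 7 neutrophil and 4 platelet markers were at 0, and C1qa, Csf1r and Adgre1 of the macrophage list were at 0. The 8 fibroblast markers together took 354, 1727 and 265 CPM in libraries 1, 3 and 4, and the 6 markers of plasmacytoid dendritic cells, among which Bst2 and Tcf4 are not limited to that type, 281, 732 and 872 CPM. The fibroblast list was thus the higher of these in libraries 1 and 3 and the lower in library 4. Of the 17 B cells with 2 or more markers of another type, 15 carried fibroblast ones. Library 3 held 12 of the 17 among its 33 B cells, library 1 held 5 among 98 and library 4 held 0 among 29. In each library 1 cell named BC carried Siglech and Cox6a2, marker genes of plasmacytoid dendritic cells (2, 2 and 3 UMIs of Siglech), with 0 UMIs of Cd79a and of Ms4a1. The one in library 4 held 33 of that library's 119 Ly6d UMIs. Among C57BL/6 barcodes without a name (6, 187 and 9), 2 carried 2 or more of the 5 B cell markers.

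B cells were more frequent in the NOD libraries labelled ICAM-1 knockout than in any C57BL/6 library. They made up 22.5%, 21.4% and 21.0% of named cells there (mean 21.6 ± 0.794, SD, n = 3) against 8.21%, 0.913% and 7.42% in C57BL/6 (5.51 ± 4.00, n = 3), a difference of 16.1 percentage points, and the groups did not overlap. In an exact permutation test (two-sided) p was 0.1, which is as low as 3 against 3 samples can go. Against named leukocytes the difference was 3.75 points (exact permutation p = 0.5) and against lymphocytes it was -5.31 points (p = 0.9), so the higher share was not seen among lymphocytes. NOD control 1 held 7 B cells among 1400 named cells (0.5%), and NOD control 2, the sum of libraries titled 2-1 and 2-2, held 18.1% (16.9 to 19.4). These 2 samples lay below and above all C57BL/6 libraries, and their mean of 9.32% ± 12.5 (SD, n = 2) was 3.81 points above C57BL/6 (exact permutation p = 0.9). Without NOD control 2 the difference was -5.01 points.

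**Figure D4:**
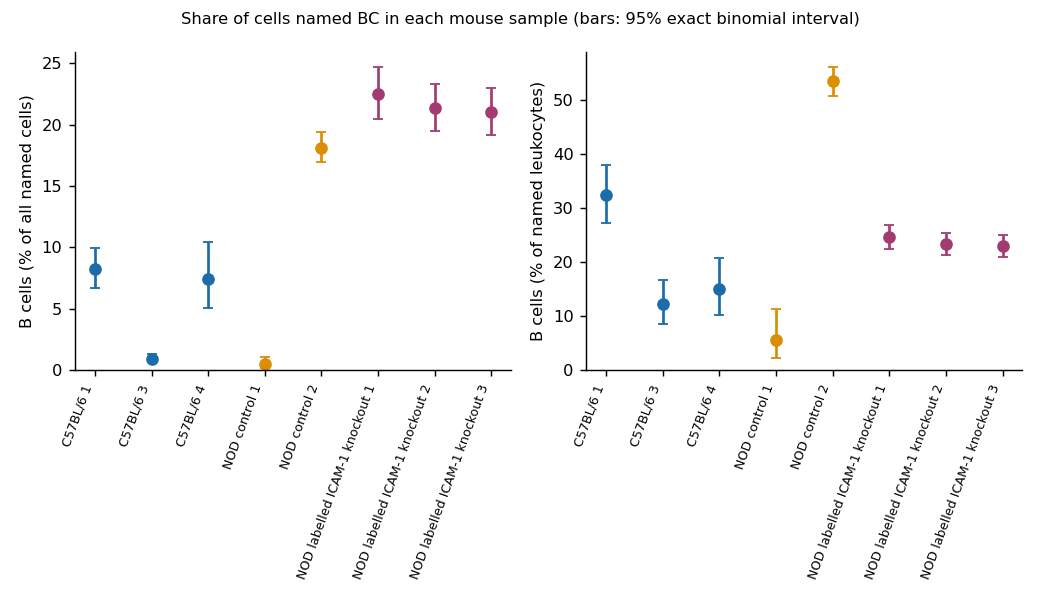
Points give the share of cells named BC in each mouse sample, as a percentage of all named cells (left) and of named leukocytes (right), with 95% exact binomial intervals for counting error. The 3 samples labelled ICAM-1 knockout lie between 21.0% and 22.5% of named cells, above the C57BL/6 libraries at 0.913% to 8.21%, while NOD control samples lie at 0.5% and 18.1%.

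Before genes were compared, the targeted gene was read in every sample. Icam1 (chromosome 9, 21015985 to 21028817) was at 81.8, 88.1 and 48.0 CPM over all named cells in C57BL/6, 94.5 and 51.0 CPM in NOD control, and 248, 262 and 255 CPM in the libraries labelled ICAM-1 knockout. In B cells it was at 44.3, 176 and 75.8 CPM in C57BL/6 and 100, 89.1 and 127 CPM in the labelled libraries. The values do not show a loss of Icam1 transcript, so the samples are called libraries labelled ICAM-1 knockout throughout, and a 3' tag outside a deleted part checks nothing. Strain and the labelled genotype differ together in this comparison and cannot be told apart.

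Class I presentation genes were higher in B cells of the libraries labelled ICAM-1 knockout than in those of C57BL/6. Of 6764 genes tested with edgeR's quasi-likelihood test on UMI sums per sample (Benjamini-Hochberg adjusted p under 0.05), 142 passed (2.1%), 112 higher (1.66%) and 30 lower (0.444%) in the labelled libraries. Scaling by RLE size factors gave 57 higher and 40 lower and DESeq2 55 and 69. Over all genes tested the median log2 difference was 0.43 with the scaling used (TMM) and 0.15 with RLE, and single values should be read against that shift. Of the 19 tested receptor and signalling genes 0 passed (median 0.54), of 15 lineage factors 0 (0.22) and of 9 inhibitory receptors 0. With 2.1% of all genes passing, counts of 0 in lists of this size do not set these genes apart, and the test does not show that their levels were alike. Cd79a, for example, was at 1876, 2312 and 3337 CPM in C57BL/6 and 2979, 2637 and 2525 CPM in the labelled libraries, which overlap. Ms4a1, at 973, 995 and 826 CPM in the latter, overlapped too. At an unadjusted p under 0.05, 1169 genes passed.

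Of the 11 class I presentation genes 7 were higher in the libraries labelled ICAM-1 knockout (2.1% of all genes passed), and the list's median log2 difference was 1.50. H2-T23 (Qa-1), a non-classical class I chain, was at 44.3, 29.3 and 37.9 CPM in C57BL/6 and 390, 337 and 382 CPM in the labelled libraries, without overlap (log2 difference 3.24, SE 0.40, edgeR adjusted p = 0.000231). The C57BL/6 values of H2-T23 rest on 5 UMIs in all, so the size of its difference is poorly measured. H2-K1, a classical chain, was at 724, 819 and 1138 CPM against 2020, 1941 and 1951 CPM (1.25, SE 0.30, edgeR adjusted p = 0.0457). The labelled libraries were above all C57BL/6 libraries for both genes. Tapbp, which tethers empty class I chains to the peptide transporter, was at 59.1, 146 and 75.8 CPM against 366, 361 and 323 CPM, and the immunoproteasome subunits Psmb8 and Psmb9 rose by 1.50 and 1.81 on the log2 scale. Tap1, a transporter chain, had 2 UMIs in C57BL/6 and 180 in the labelled libraries, a ratio of 9.59 (95% interval 2.62 to 79.8). B2m, the shared light chain of class I, did not pass (0.90, edgeR adjusted p = 0.219). Pooled over all other named cells, H2-K1 was at 408 CPM in C57BL/6 and 2402 CPM in the labelled libraries, but the mix of cell types differed between these pools. In T cells its log2 difference was 0.38 (edgeR adjusted p = 0.430). The call of H2-K1 ended in 8 of 16 alternatives, with adjusted p up to 0.301 without 1 labelled library. These 16 leave out the replicate block, with which no gene passed. H2-D1 behaved alike (8 of 16, up to 0.292), whereas H2-T23 kept its call in all 16. Psmb8 lost its call in 6 of them, Psmb9 in 5 and Tapbp in 4.

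Of 18 interferon response genes 14 could be tested, 4 of them with 0 UMIs in C57BL/6 B cells, so that they entered the test through the labelled libraries. Ly6a, a surface protein that interferon induces, was at 207, 380 and 455 CPM against 1080, 943 and 1327 CPM (1.86, SE 0.31, edgeR adjusted p = 0.00418), without overlap, and lost its call without each labelled library in turn (adjusted p up to 0.104). The guanylate-binding protein genes Gbp2 and Gbp4 and the GTPase gene Irgm1 had 0 UMIs in C57BL/6 and 98, 84 and 80 in the labelled libraries, at least 3.48-fold, 2.98-fold and 2.84-fold higher. Their calls were lost in 4 of 15, 7 of 14 and 10 of 14 alternatives that gave a value.

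Klf2, Jund and Cxcr4 were also higher in the labelled libraries. Klf2, which keeps lymphocytes quiescent and recirculating, was at 222, 615 and 683 CPM in C57BL/6 and 2508, 2533 and 2347 CPM in the labelled libraries (2.51, SE 0.35, edgeR adjusted p = 0.000871). Jund, an AP-1 factor, was at 118, 556 and 228 CPM against 3301, 3280.5 and 2597 CPM (3.56, SE 0.42, edgeR adjusted p = 0.000231). Cxcr4, the receptor for CXCL12, was at 44.3, 29.3 and 37.9 CPM against 448, 693 and 845 CPM (4.09, SE 0.45, edgeR adjusted p = 6.93e-05). The C57BL/6 values of Cxcr4 rest on 5 UMIs in all, so the size of its difference is poorly measured. None of these groups overlapped, and all 3 calls held in each of 16 alternatives other than a replicate block. Pooled over the other named cells, Klf2 went from 293 to 712 CPM, Jund from 304 to 1951 CPM and Cxcr4 from 4.21 to 213 CPM. The mix of cell types differed between these pools. In T cells the log2 differences of Klf2 and Jund were 0.96 and 2.34 (edgeR adjusted p = 0.245 and 0.00556). Of 18 immediate early and stress genes 3 passed (Jund, Klf2 and Fosb), and of 15 homing receptors 2 (Cxcr4 and Itgb7), against 1.66% of all genes higher. The call of Fosb was lost in 11 of 15 alternatives (adjusted p up to 0.25) and that of Itgb7 in 7 of 15 (up to 0.164). The list medians were 1.13 and 0.87. Tnfrsf13c and H2-DMb1 were also higher (1.44 and 1.69), Tnfrsf13c in only 6 of 16 alternatives.

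Ly6d was the only one of the 5 label markers that passed, and it was lower in the labelled libraries. It was at 989, 1610 and 4513 CPM in C57BL/6 and 625, 723 and 538 CPM in the labelled libraries (-1.68, SE 0.38, edgeR adjusted p = 0.0353). The groups did not overlap, but library 4 lay far above libraries 1 and 3. Without C57BL/6 library 4 the log2 difference was -1.08 and the edgeR adjusted p 0.0566, and without each labelled library in turn the adjusted p was 0.238, 0.193 and 0.252. Without the cells carrying Siglech or Cox6a2, or 10 or more UMIs of Jchain or a switched chain, it was -1.48 on the log2 scale (adjusted p = 0.0255). Ribosomal protein genes were among the lower ones. Rps18 (chromosome 17, 33951999 to 33956001) was at 7754, 5297 and 6560.5 CPM in C57BL/6 and 70.0, 121 and 94.2 CPM in the labelled libraries (-6.08, SE 0.48, edgeR adjusted p = 8.98e-06). Of the 30 lower genes 13, and of the 112 higher genes 12, were ribosomal protein genes or symbols of pseudogenes and unnamed loci. Such symbols were 317 of all 6764 genes tested. Gm10260, an unnamed locus annotated as protein coding, had 1 UMI in C57BL/6 B cells and 4833 in the labelled libraries. Both genes moved in the same way outside the B cells, Rps18 from 2966 to 74.5 CPM and Gm10260 from 2.68 to 3438 CPM. How far the assignment of reads between genes and copies of similar sequence enters the counts of such symbols was not tested. Apobec3, an antiviral deaminase, was lower with 177, 293 and 303 CPM against 21.0, 29.7 and 24.2 CPM (-3.20, edgeR adjusted p = 0.000298). Pooled over the other cells, whose mix of types differed, Apobec3 was at 19.3 and 39.3 CPM. In T cells its log2 difference was -1.41 (edgeR adjusted p = 0.121).

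**Figure D5:**
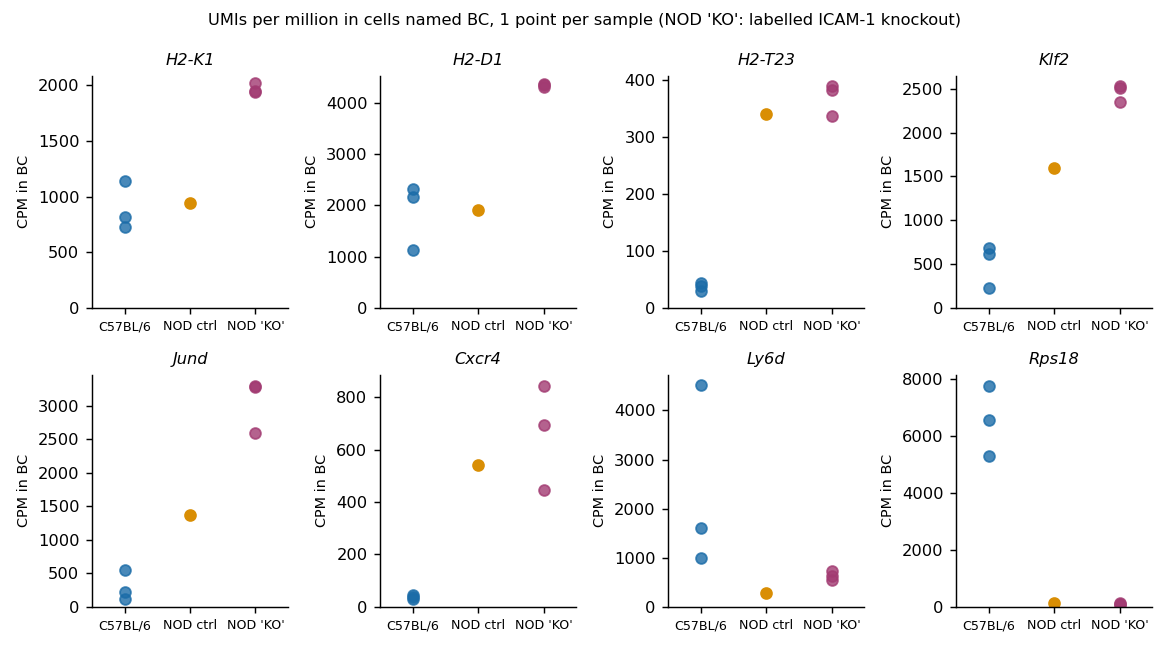
Each point is the CPM (y axis) of a gene over the cells named BC of 1 sample, for C57BL/6 (3 samples), NOD control 2 (1 sample) and NOD labelled ICAM-1 knockout (3 samples). H2-T23, Klf2, Jund and Cxcr4 lie above all C57BL/6 samples in both NOD groups, Rps18 lies below, and Ly6d of C57BL/6 is spread from 989 to 4513 CPM.

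T cell transcripts were among the largest fitted differences in cells named BC. Of 10 T cell markers 9 could be tested, 6 of them with 0 UMIs in C57BL/6 B cells, so that they entered the test through the labelled libraries. Those that passed were Trbc2, Cd3g, Trbc1, Cd3e, Lck and Trac, where 1.66% of all genes passed as higher. Of these, Trbc2, Cd3g, Trbc1, Cd3e and Trac had 0 UMIs in C57BL/6 B cells, so their calls are no independent support. Trac lost its call in 11 of 14 alternatives, Lck in 9 and Trbc2 in 3 of 15. Ccl5, a chemokine of cytotoxic lymphocytes, had 0 UMIs in C57BL/6 B cells and 1276 in the labelled libraries, at least 45.3-fold higher, and was present in 61.4%, 59.8% and 68.1% of the cells named BC there. The T cell list took 29.5, 0 and 75.8 CPM of C57BL/6 B cells and 763, 698 and 832 CPM of B cells in the labelled libraries, whose T cells were far more numerous (987 to 1187 per sample against 101 to 121). Conversely, Igkc was found in 0 of the C57BL/6 T cells and in 227 of 987, 357 of 1161 and 342 of 1187 T cells in the labelled libraries. How far free RNA or shared droplets enter the other calls of this comparison was not tested. Without cells that carry 2 or more markers of another type, 68 genes passed in place of 142.

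The lambda share lay lower in both NOD groups than in C57BL/6. In NOD control 1, with 7 B cells, and NOD control 2, lambda took 16.7% and 7.91% of light chain UMIs. Without plasma-like and Siglech or Cox6a2 cells these were 16.7% and 24.4%. In the libraries labelled ICAM-1 knockout lambda took 22.1%, 9.65% and 11.0%, against 35.8%, 34.1% and 32.5% in C57BL/6, without overlap (difference -19.9 percentage points, exact two-sided permutation p = 0.1, the smallest possible). Part of that lay in plasma-like cells: in the labelled library 2 a single cell, and in library 3 a single cell, held 10 or more UMIs of Jchain or switched chains, and without such cells and without those carrying Siglech or Cox6a2 the shares were 22.1%, 21.3% and 19.7% against 35.6%, 34.1% and 32.5% (difference -13.0 points, exact permutation p = 0.1).

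Against NOD control the comparison rested on 1 sample, NOD control 2, which is assumed to vary like the others, since NOD control 1 held 7 B cells. It shares its C57BL/6 samples with the comparison above. Of 6764 genes 55 passed (0.813%) with edgeR's quasi-likelihood test and Benjamini-Hochberg adjustment, 45 higher (0.665%) and 10 lower (0.148%), and 821 had an unadjusted p under 0.05. Switched heavy chains led: Ighg1, Ighg2b and Ighg2c had 0 UMIs in C57BL/6 and 4977, 2359 and 822 in NOD control 2, at least 362-fold, 171-fold and 59.8-fold higher. With 0 UMIs in C57BL/6, these genes entered the test through NOD samples alone. Without cells carrying 2 or more markers of another type, the fitted log2 differences of Ighg1 and Ighg2b were 8.20 and 7.21 and their calls were lost (edgeR adjusted p = 0.0838 and 0.245). Ighg2c lost its call without plasma-like and Siglech or Cox6a2 cells (6.07, adjusted p = 0.403) and with DESeq2 (0.485). In that sample 6 cells held 10 or more UMIs of Jchain or a switched chain, and the 3 highest cells held 5644 of its 8165 switched UMIs. H2-T23 was at 340 CPM (3.31, SE 0.46, edgeR adjusted p = 0.00116), Cxcr4 at 543 CPM (3.98, SE 0.51, edgeR adjusted p = 0.000733), Klf2 at 1598 CPM and Jund at 1369 CPM, each above all 3 C57BL/6 libraries, whose values are given above. H2-T23 and Cxcr4 kept their calls in 13 of 13 alternatives, while Klf2 lost its call in 5 and Jund in 3. H2-K1 at 942 CPM and H2-D1 at 1920 CPM overlapped C57BL/6 and did not pass (log2 0.37 and 0.39). Receptor and signalling genes did not pass (0 of 19, median 0.37, against 0.39 over all genes), nor did lineage factors (0 of 15).

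Markers of nerve stroma moved with the NOD control comparison. Lum, Apod and Dcn of the fibroblast list and Pmp22 of the Schwann cell list passed as higher, where 0.665% of all genes did. Dcn lost its call in 4 of 13 alternatives, Apod in 3, and Lum and Pmp22 in 1 each. The fibroblast list took 3991 CPM in NOD control 2 against 354, 1727 and 265 CPM in C57BL/6, and 520 of its 716 B cells carried 2 or more markers of another type. Without such cells 20 genes passed in place of 55, and without C57BL/6 library 1, 167 did. Slpi, a secreted protease inhibitor, had 2 UMIs in C57BL/6 and 2947 in NOD control 2, a ratio of 321 (88.9 to 2655). Without the cells with markers of another type its log2 difference was 2.79 and the call was lost (edgeR adjusted p = 0.426). Of the lower genes, Rps18 was at 136 CPM (-5.39), Apobec3 at 28.9 CPM (-2.81) and Tyrobp, a signalling adaptor of myeloid and NK cells, at 49.3 CPM (-2.33). Without plasma-like and Siglech or Cox6a2 cells the difference of Tyrobp was -0.06 (edgeR adjusted p = 0.985). Sft2d1 was at 18.7 CPM against 73.8, 293 and 190 CPM in C57BL/6 (-2.86, edgeR adjusted p = 0.0293), and lost its call in 4 of 12 alternatives (adjusted p up to 0.19).

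Whether a change was particular to B cells was tested against T cells of the same samples (named TC in C57BL/6, CD4 and CD8 in NOD). The difference of the 2 changes between C57BL/6 and the libraries labelled ICAM-1 knockout passed for 157 of 4212 genes (3.73%), 138 with a B cell change above that of T cells and 19 below it, with edgeR's quasi-likelihood test, Benjamini-Hochberg adjustment and the sample as a block. Of the 142 genes called in B cells 137 could be tested, and 26 passed. The B cell change lay above the T cell change for Klf2, Jund, Fosb and H2-K1, by 1.21, 1.04, 2.26 and 0.72 on the log2 scale. In T cells themselves these genes changed by 0.96, 2.34, -0.49 and 0.38, and of the 4 only Jund passed there (edgeR adjusted p = 0.245, 0.00556, 0.612 and 0.430). H2-T23 and Cxcr4 did not pass (1.53 and 1.36, edgeR adjusted p = 0.136 and 0.476), so their changes are not shown to differ from those of T cells. Ly6d differed by -7.66, and Ccl5, Trbc2 and Cd3g by 11.59, 8.97 and 7.80. Ly6d could not fall in T cells, and the sizes of these 4 are fitted values and no bounds, since Ly6d had 0 UMIs in C57BL/6 T cells and the other 3 had 0 in C57BL/6 B cells.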

How the data were processed

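UMI counts per gene and barcode were deposited by the authors as a single mouse matrix of 31053 genes, together with the cell types and the library number of the barcodes. Cell Ranger 3.0.2 and mm10 appear in the submitters' processing notes. Clustering, doublet removal, free RNA correction and annotation release: not given in the sources used here. The members and gene lists were chosen with earlier results of these data known. Doublets were not called here; B cells with 2 or more markers of another type were left out in an alternative instead.

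UMIs were summed per sample over cells named BC (Python 3.11.15, pandas 2.3.3) and scaled to CPM. B cells against other C57BL/6 types are described without a test. Samples with at least 20 B cells were tested in 1 fit with edgeR 4.0.16 (R 4.3.3): filterByExpr at a count of 10, TMM factors, the quasi-likelihood test, Benjamini-Hochberg adjustment, threshold 0.05. Deviances adjusted for small counts (legacy = FALSE) were chosen after the unadjusted ones gave an unlimited prior weight. In simulated data with 5975 genes for the knockout comparison, this setting recovered 71% of 4-fold and 16% of 2-fold changes, with 4.4% false calls. The changed genes were drawn from the more abundant ones, so the recovery rates do not cover genes with few UMIs. Shares were compared with exact permutation tests.

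Genes are named when they belong to a list, are among the 20 with the largest ratio of mean level to any other type of at least 50 cells, or are among the 12 called genes with the largest change each way at a mean log2 CPM of at least 5 without overlap. Examples are given from these, and some genes are not reported here. Alternatives were RLE factors, DESeq2 1.42.0, no filter, control libraries apart, a minimum of 10 B cells, equal cells, marker-free cells, only the groups compared, a replicate block, each sample left out, and, added after seeing the data, unadjusted deviances and B cells without plasma-like and Siglech or Cox6a2 cells. Gene coordinates come from GENCODE vM21 (345 of 345 genes matched). The deposited table used had 0 unused value columns.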

Additional observations from a re-analysis of the deposited data

Results flagged for a closer look

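The change between C57BL/6 and the libraries labelled ICAM-1 knockout differed between B cells and T cells, by a test of the difference itself, for 157 genes. Among the named genes with the larger change in B cells were Klf2 (difference 1.21 on the log2 scale), Jund (1.04), Fosb (2.26) and H2-K1 (0.72). Apobec3 (-2.08) fell more in B cells. The difference for Ly6d was -7.66, a fitted value and no bound, since Ly6d had 0 UMIs in C57BL/6 T cells and could not fall there. Genes of T and NK cells differed through values near 0 in C57BL/6 B cells: Ccl5 by 11.59, Trbc2 by 8.97, Trbc1 by 8.43, Cd3g by 7.80 and Nkg7 by 3.41. Counts of ribosomal genes fell less in B cells than in T cells, Rps18 by 1.07, Rpl10 by 0.99, Rpl21 by 0.82, Rps27 by 0.80 and Rps2 by 0.68. The part that read assignment between similar copies plays in these falls was not tested.

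Barcodes without a cell type name, which enter no comparison, held 9 UMIs of Igkc in C57BL/6 library 3, all in 1 barcode, above the limit that a count of 0 allows.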

How the results depend on the processing

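The 142 genes that differed between the libraries labelled ICAM-1 knockout and C57BL/6 became 82 without a filter, 52 with equal cells, 68 without B cells carrying 2 or more markers of another type, 85 with only these 2 groups and 255 with unadjusted deviances. They were 97 with RLE, 124 with DESeq2, 173 with the control libraries apart and 152 without plasma-like and Siglech or Cox6a2 cells. Leaving out 1 sample gave 27 to 171: 30, 29 and 27 without a labelled library, 171 without C57BL/6 library 1. With the replicate number as a block 0 genes passed, but that fit has nearly as many terms as samples and could hardly call any gene. Deviations of same-numbered samples correlated at -0.000434 and 0.001629 for numbers 1 and 3. These values do not show pairing, and with few UMIs in C57BL/6 B cells they cannot exclude it. No paired analysis was possible against NOD control because it shares only 1 number with C57BL/6. For NOD control, 55 became 113 with libraries 2-1 and 2-2 apart, 17 with equal cells, 20 without marker-carrying cells, 180 with unadjusted deviances and 47 to 167 with 1 sample left out (167 without C57BL/6 library 1). The 157 genes of the B and T cell difference became 8 without the sample block and 93 to 145 with 1 sample left out (93 without the labelled library 1). The B cell share differed by -5.31 points over lymphocytes, by 13.8 to 17.5 points with 1 sample left out and, for NOD control, by -5.01 to 12.6 points. Causes were not tested. Where an alternative gave a value, the 47 and 29 named genes did not change sign; with equal cells 27 and 17 had one, and Tyrobp reached -0.06. The 26370 to 67711 UMIs of C57BL/6 B cells limit detection.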
